A study of Homo sapiens with 4 samples.

Results

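The genes described are 9 members of the p53 and RB pathways: MDM2, MDM4, CDKN1A, TP63, RB1, RBL1, RBL2, CDKN2A and CDKN2B. They were found by their Ensembl gene identifiers in the site lists of both PARP1 immunoprecipitates, and all 9 of 9 were in each list. Together they held 75 of the 166248 listed sites in IP 1 and 118 of the 229782 listed sites in IP 2, or 0.0451% and 0.0514% of the lists. The study sequenced RNA recovered with PARP1, the main poly(ADP-ribose) polymerase, from HK-2 cells, and its 4 samples are 2 PARP1 IPs and 2 inputs. HK-2 is a human proximal tubule line immortalised with the papillomavirus proteins E6 and E7, per general knowledge of the line. The labels name no genotype, treatment or time, and the IP used a Flag antibody. The inputs were not analysed here, no control IP is among the samples, and the labels leave it unsaid whether the IPs are separate cultures, so the spread between them may be technical.

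The p53 protein is a transcription factor that responds to DNA damage, and its level is set largely by MDM2, the ubiquitin ligase that marks it for degradation, and by MDM4, a related protein that binds p53 and works with MDM2. CDKN1A encodes p21, a p53 target that inhibits cyclin-dependent kinases, and TP63 encodes a relative of p53 that marks basal epithelial cells. RB1, RBL1 and RBL2 encode RB, p107 and p130, the pocket proteins that hold E2F factors in check until cyclin-dependent kinases phosphorylate them. CDKN2A encodes both p16, which inhibits CDK4 and CDK6, and ARF, which inhibits MDM2, and CDKN2B encodes the related inhibitor p15. In HK-2 cells the viral E6 protein drives p53 degradation and E7 binds the pocket proteins, so both arms are perturbed in the line itself, which limits it as a model of these pathways.

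Each listed site is 1 base at which sequenced tags differed from the reference by a substitution, deletion or insertion. The deposited lists give the count of tags over the base and the count of mutated tags. They do not give the substituted base, so a base at which the line differs from the reference cannot be told apart from another mismatch. An abundant RNA whose tags all match the reference gives no site, and the number of sites is therefore not an expression level.

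The sites in mature transcript sequence were few, and they are shown with a pair at a promoter, because they lie where annotated transcripts give the surrounding sequence. Sequences run 5′ to 3′ on the gene's own strand, the listed base is in capitals, and the transcripts are those of GENCODE release 29 on GRCh38. The first is from the 3′ UTR of CDKN1A at chr6:36686560-36686588 (plus strand) and carried the only CDKN1A site of IP 1.
CDKN1A 3′ UTR: ccccagctacccttTttctccagctgggc
The second, from the 3′ UTR of CDKN2B at chr9:22005546-22005574 (minus strand), holds 2 adjacent deleted bases of IP 2, both in capitals.
CDKN2B 3′ UTR: cagtcgatgcgttcACtccaatgtctgct
The next pair are the coding sites of RBL2 in IP 2, in exon 17 at chr16:53470795-53470823 and exon 2 at chr16:53439094-53439122 (plus strand), the only coding sites of the 9 genes in either list.
RBL2 exon 17: atatttcagatgaaTtgaggaaaaaaatc
RBL2 exon 2: gtggaaggaaactaTgtatctttaactag
The 3′ UTR of MDM4 had 2 sites in each IP, and the one shown is a deletion of IP 1 at chr1:204551769-204551797 (plus strand), with 2 of 6 tags mutated.
MDM4 3′ UTR: tgcagagactgatcTttgagatctggacc
The central 15 bases of these stretches were searched for in the transcripts of all 58676 annotated genes. They were in no other gene for the MDM4 deletion, the CDKN2B pair and RBL2 exon 17, and in 1 other gene for CDKN1A and for RBL2 exon 2. Exonic sites not shown above often lay in less particular sequence. For the MDM2 3′ UTR sites the same search found 14 and 44 other genes in IP 1, at 68848213 and 68849495, and 3 and 2 in IP 2, at 68843990 and 68845591. For an insertion of IP 2 in the MDM4 3′ UTR, at 204550149, it found 11.

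The last sequence is from the MDM2 promoter region at chr12:68808774-68808803 (plus strand, RefSeq promoter table, GRCh38.p14), and its 2 capitals are substituted bases of IP 2, 24 bases apart.
MDM2 promoter: cgGgggccgggggctgcggggccgctTcgg
MDM2 has an upstream promoter and a second one in its first intron that p53 activates. All 9 members matched that promoter table, and MDM2 was the one with listed sites inside a window. The 2 bases, 68808776 and 68808800, lay before the RefSeq starts of the second, at -248 and -224 from one annotated start and at -241 and -217 from another. Transcripts from the upstream promoter run through both bases as intron, and each base had 2 of 2 tags mutated.

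The members were chosen with earlier results of these data known, so the comparisons with other genes are descriptions and not tests. All 9 of 9 members had a site in both IPs, against 55.4% of the 19951 protein-coding genes. This share depends on length: among genes of the same decile of annotated span it was between 17.9% for the decile of CDKN2B, the shortest member, and 92.2% for that of RB1 and TP63, the longest. Sites in the sense direction of a gene were counted per 10 kb of its annotated span, and each density was placed among the 1995 protein-coding genes of the same span decile. MDM4 was the densest member by this placing in both IPs, and TP63 the sparsest. The median member had 1.51 sense sites per 10 kb in IP 1 and 2.12 in IP 2, while the median protein-coding gene had 0.269 in IP 1 and 0.412 in IP 2. The median percentile of the 9 members within their span deciles was 78.2 in IP 1 and 81.9 in IP 2. The comparison genes included 5633 with no site in either IP. In the deciles of CDKN1A and CDKN2B the median density was 0 in both IPs, and 1 site placed CDKN2B at percentile 78.8 in IP 1.

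**Figure D1:**
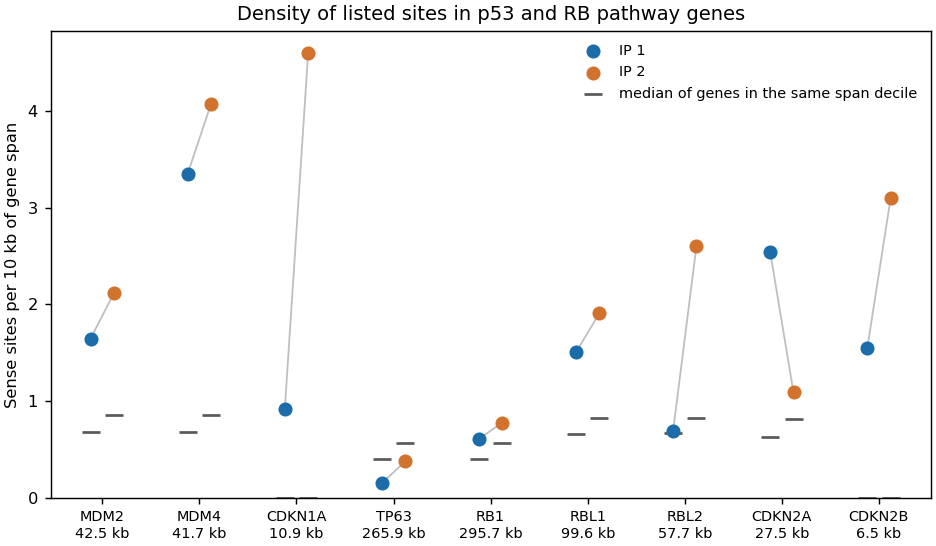
Sense sites per 10 kb of annotated span (vertical axis) in IP 1 (blue) and IP 2 (orange) for each gene, with its span under the name; grey dashes mark the median of protein-coding genes in the same span decile. MDM4 stood at 3.35 and 4.07, TP63 below its dashes at 0.150 and 0.376, and CDKN1A and RBL2 differed most between the IPs.

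The sites were shallow. The median member site had 2 tags in each IP, the deepest had 8 tags in IP 1 and 10 in IP 2, and the most mutated tags at a site were 5 in IP 1 and 6 in IP 2. Sites with 2 of 2 tags mutated made up 74.7% of member sites in IP 1 and 75.4% in IP 2, against 79.1% and 78.4% of the sites of all protein-coding genes. A share of 2 of 2 has an exact 95% interval of 15.8% to 100.0%, and such intervals cover counting error only, since amplified reads are not independent molecules. No listed site had fewer than 2 tags or 2 mutated tags, so 2 of 2 is the floor of the lists. The intervals do not allow for that selection.

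**Figure D2:**
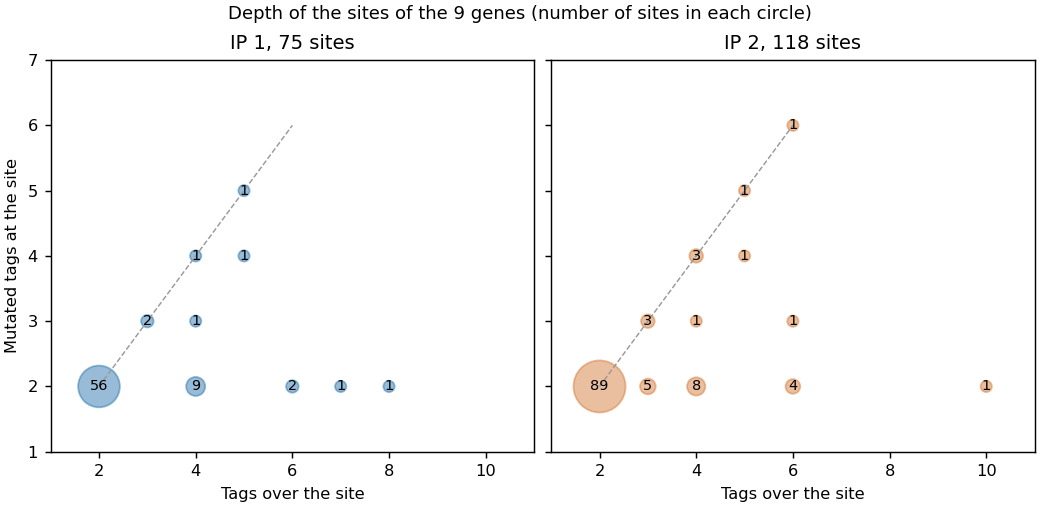
Mutated tags (vertical axis) against tags (horizontal axis) at the sites of the 9 genes in IP 1 (left, 75 sites) and IP 2 (right, 118 sites); each circle carries its number of sites, and the dashed line marks sites where every tag was mutated. The circle at 2 of 2 tags held 56 sites in IP 1 and 89 in IP 2.

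Most member sites were intronic: 88.0% in IP 1 (exact 95% interval 78.4% to 94.4%) and 80.5% in IP 2 (72.2% to 87.2%), against 80.6% and 77.3% for all protein-coding genes. The 3′ UTR held 6.67% of member sites in IP 1 and 5.08% in IP 2, against 4.32% and 4.01%. Coding sequence held 0 of 75 sites in IP 1 and 2 of 118 in IP 2, against 3.39% and 2.92% over all protein-coding genes. The 5′ UTR held none in either, against 0.592% and 0.496%. Antisense sites made up 5.33% in IP 1 and 12.7% in IP 2, against 11.1% and 15.2%. Substitutions were 56 of 75 member sites in IP 1 and 84 of 118 in IP 2, deletions 10 and 27, and insertions 9 and 7.

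A base listed in both IPs on the sense strand was found in 3 of 9 members, MDM4, TP63 and RBL1, against 14.1% of protein-coding genes. Among genes of the same span decile the share was 15.3% for MDM4, 37.2% for TP63 and 28.9% for RBL1. For the members without such a base it was 37.2% for RB1, 21.6% for RBL2, 15.3% for MDM2, 14.5% for CDKN2A, 4.66% for CDKN1A and 2.71% for CDKN2B. There were 5 such bases, 3 of them in MDM4, and every one had 2 of 2 tags mutated in each IP. They were 6.67% of the member sites of IP 1 and 4.24% of those of IP 2, against 4.68% and 3.70% over all protein-coding genes.

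**Figure D3:**
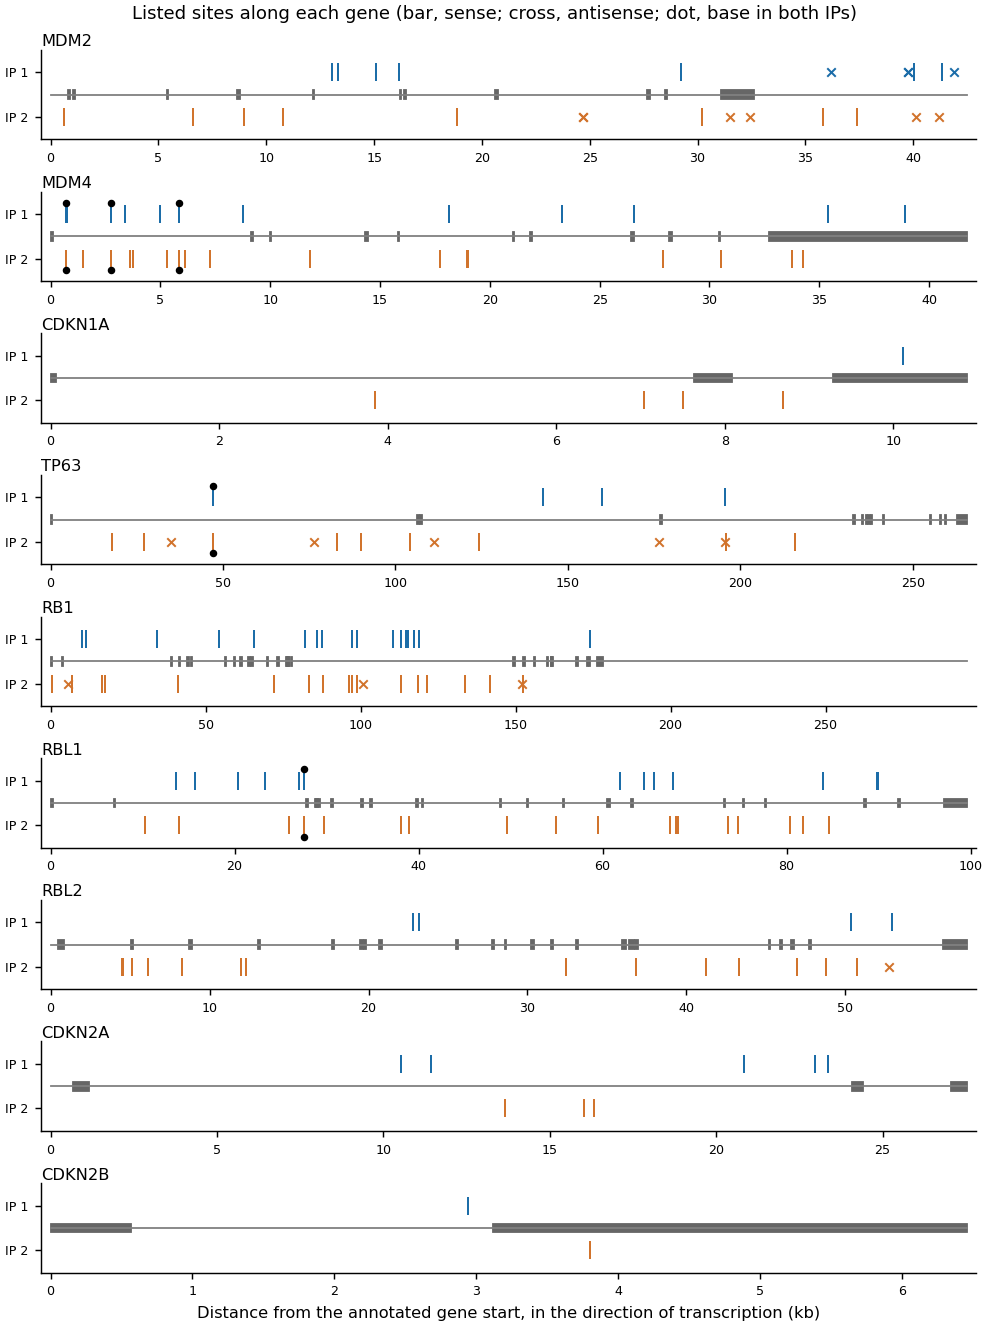
Sites along each gene, by distance in kb from the annotated start in the direction of transcription, with IP 1 above and IP 2 below the gene and the exons of the principal transcript as grey boxes. Bars are sense sites, crosses are antisense sites and dots mark bases listed in both IPs; most intronic MDM4 sites lie in intron 1, most RB1 sense sites lie in intron 17, and no site assigned to RB1 lies in the last 117.5 kb.

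MDM2 (chromosome 12, 68808176 to 68850686, plus strand, 42.5 kb) had 7 and 9 sense sites in IPs 1 and 2, or 1.65 and 2.12 per 10 kb. These densities were at percentiles 78.2 and 81.1 of its span decile, so both IPs placed the gene above most others of its length. No base was listed in both. Within the principal transcript, intron 5 held 4 sites of IP 1 and 0 of IP 2, and introns 3 and 4 held 3 sites of IP 2 and 0 of IP 1, so even where the totals were close the positions were not the same. The sites with the most mutated tags were an insertion at 68827021 in intron 7, with 4 of 4 tags in IP 2, and a substitution at 68821481 in intron 5, with 3 of 3 tags in IP 1.

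The 4 exonic MDM2 sites, 2 in each IP, all lay in a long 3′ UTR present in 1 of 15 annotated coding transcripts. That stretch overlaps CPM, a carboxypeptidase gene on the opposite strand (68842197 to 68971570), which had 38 and 41 sense sites in IPs 1 and 2. Of the antisense MDM2 sites, 4 of 4 in IP 1 and 2 of 6 in IP 2 lay within CPM. The sources used here do not say whether the library preparation kept the strand, and the strands are those the lists give.

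MDM4 (chromosome 1, 204516379 to 204558120, plus strand, 41.7 kb) had 14 and 17 sense sites in IPs 1 and 2, or 3.35 and 4.07 per 10 kb. It stood at percentiles 95.7 and 97.2 of its span decile, the highest of the members in both IPs. With sites within 100 bases of each other counted once, 11 and 16 remained. Intron 1 is 8.97 kb long and makes up 28.3% of the intron length of the principal transcript. It held 7 of 12 intronic sites in IP 1 (58.3%, exact 95% interval 27.7% to 84.8%) and 9 of 15 in IP 2 (60.0%, 32.3% to 83.7%). Its length share was within the interval of IP 1 and below that of IP 2. This intron held the most sites in each IP and the intervals take sites as independent, so they do not test an excess in it.

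The 3 MDM4 bases listed in both IPs, 204517077, 204519150 and 204522207, were all in this first intron. Substitutions with more tags lay elsewhere in MDM4. In intron 5, 204535399 had 6 of 6 tags mutated in IP 2 (exact 95% interval 54.1% to 100.0%), and 204535359, 40 bases before it, had 4 of 4. The deepest position, a deletion at 204534115 in IP 2, had 2 of 10 tags mutated (2.52% to 55.6%). The genes nearest to MDM4 in density over the 2 IPs, of its span decile, were TIA1 with 13 and 16 sense sites, ACSF2 with 16 and 20, and IL4I1 with 13 and 16, at distances of 0.0166, 0.0310 and 0.0454 in log2(sites per 10 kb + 0.1).

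TP63 (chromosome 3, 189631416 to 189897279, plus strand, 265.9 kb) had 4 and 10 sense sites in IPs 1 and 2, or 0.150 and 0.376 per 10 kb. Its percentiles were 34.9 and 42.5, the lowest among the members in both IPs. It also had 0 antisense sites in IP 1 and 5 in IP 2. The gene gives long proteins from its upstream start, which 5 of 11 coding transcripts use, and the shorter ΔN forms from a start at 189789660. Upstream of that second start lay 2 sense sites in IP 1 and 7 in IP 2, where coding transcripts of the long form alone run, and downstream lay 2 and 3. One base, 189678510 in the upstream part, was listed in both IPs with 2 of 2 tags each. Another, 189826987, was listed on the plus strand in IP 1 and on the minus strand in IP 2. All sense sites were intronic.

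CDKN1A (chromosome 6, 36676460 to 36687339, plus strand, 10.9 kb) had 1 sense site in IP 1 and 5 in IP 2, or 0.919 and 4.60 per 10 kb. The percentiles, 67.0 and 94.7, therefore rested on which IP was read. The site of IP 1 was a substitution at 36686574 in the 3′ UTR shown above, with 5 of 5 tags mutated (exact 95% interval 47.8% to 100.0%). The 5 sites of IP 2 were all intronic, 3 in intron 1 and 2 adjacent bases, 36685151 and 36685152, in intron 2. Of these, 4 had 2 of 2 tags mutated and an insertion at 36680308 had 2 of 3. The IPs thus shared no base and no region class in this gene.

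RB1 (chromosome 13, 48303726 to 48599436, plus strand) had 18 and 23 sense sites in IPs 1 and 2, the most of the 9 genes. Per 10 kb of its 295.7 kb span these were 0.609 and 0.778, at percentiles 58.2 and 58.6. The annotated span is longer than the principal transcript, which covers 178.2 kb and ends at 48481890, and the last 117.5 kb held 0 sites assigned to RB1 in both IPs. Over the principal transcript the densities were 1.01 and 1.29 per 10 kb. All sense sites were intronic and no base was listed in both IPs. With sites within 100 bases of each other counted once, 17 and 17 remained, against 12 and 18 for RBL1.

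Intron 17 of RB1, 71.5 kb long, makes up 41.3% of its intron length and held 12 of 18 sites in IP 1 (66.7%, exact 95% interval 41.0% to 86.7%) and 14 of 23 in IP 2 (60.9%, 38.5% to 80.3%). The length share lay inside both intervals, each of which reads 1 IP alone, and below the share of sites in both IPs. The intervals take sites as independent. Some are adjacent bases that may come from the same tags, such as 48422125 to 48422127 in IP 2, each with 2 of 3 tags mutated. Per 10 kb this intron had 1.68 sites in IP 1 and 1.96 in IP 2. Whether its density was above that of the other introns was not tested over the IPs together. LPAR6, a lysophosphatidic acid receptor gene, lies on the opposite strand in this region (48389567 to 48444704) and had 0 sense sites in both IPs. Of the 3 antisense RB1 sites of IP 2, 1 was inside it. The deletion with the most mutated tags, 48425053 in IP 2, had 4 of 5.

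RBL1 (chromosome 20, 36996349 to 37095995, minus strand, 99.6 kb) had 15 and 19 sense sites in IPs 1 and 2, or 1.51 and 1.91 per 10 kb, at percentiles 78.6 and 81.9. The IPs were close in number and in percentile. The sites were all intronic and spread over 11 of 21 introns, 3 of which had sites in both IPs. Intron 2 held 7 sites of IP 1 and 4 of IP 2, among them 37068430, the 1 base listed in both. In IP 1 the base 37006072 was listed both as a deletion and as an insertion, each with 2 of 4 tags, so the number of sites exceeds the number of bases by 1 there.

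RBL2 (chromosome 16, 53433977 to 53491649, plus strand, 57.7 kb) had 4 and 15 sense sites in IPs 1 and 2, or 0.694 and 2.60 per 10 kb. The percentiles were 51.5 and 89.3, so the gene stood near the middle of its span decile in IP 1 and well above it in IP 2. Of its sense sites in the 2 IPs together, 78.9% were in IP 2 (exact 95% interval 54.4% to 93.9%), where the share over all protein-coding genes was 54.7%. The sites in coding sequence, shown above, were 53470809 in exon 17 with 5 of 5 tags mutated (47.8% to 100.0%) and 53439108 in exon 2 with 2 of 2. IP 1 had no exonic site. In introns, 4 of 4 tags were mutated at 53457183 in IP 1 and at 53480908 in IP 2.

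CDKN2A (chromosome 9, 21967753 to 21995301, minus strand, 27.5 kb) had 7 and 3 sense sites in IPs 1 and 2, or 2.54 and 1.09 per 10 kb, at percentiles 88.1 and 57.7. It was the only member with more sense sites in IP 1. With sites within 100 bases of each other counted once, 5 and 3 remained. In IP 1 the bases 21971941, 21971948 and 21971949, each with 2 of 4 tags, then count as 1 and may come from the same tags. All 10 listed sites lay in intron 1 of the principal transcript, which makes up 89.6% of its intron length. ARF transcripts start upstream, as 4 of 10 coding transcripts do, and p16 transcripts start at 21975098. The 3 sites of IP 2 and 2 of those of IP 1 lay between the starts, where coding transcripts from the upstream start alone run. The other 5 of IP 1, among them the bases that count as 1, lay beyond the p16 start, in sequence common to both. Most of the IP 1 sites had few mutated tags for their depth, such as the deletions at 21974449 with 2 of 8 and at 21984765 with 2 of 6. In IP 2 all tags were mutated at each site, with 3 of 3 at 21978980 and 21981632. The annotated gene AL359922.1 lies on the opposite strand at all 10 sites.

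CDKN2B (chromosome 9, 22002903 to 22009363, minus strand, 6.46 kb) had 1 sense site in IP 1 and 2 in IP 2, or 1.55 and 3.10 per 10 kb. These were at percentiles 78.8 and 89.0, but they rest on 3 sites. The site of IP 1 was an intronic substitution at 22006420 with 2 of 2 tags. Those of IP 2 were the adjacent 3′ UTR deletions at 22005559 and 22005560, each with 2 of 4 tags, which may come from the same tags and count as 1 when sites within 100 bases are merged. CDKN2B-AS1, a long noncoding RNA gene, and AL359922.1 are annotated on the opposite strand at all 3 sites.

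Whether a gene's sense sites were split between the IPs unlike the total was tested with a two-sided exact binomial test over 5889 protein-coding genes with at least 10 sense sites, with Benjamini-Hochberg adjustment. It compares these 2 libraries and not conditions. On simulated counts of independent sites it called 26.5% of genes changed 4-fold in odds, so a gene not called may still be split unlike the total. The test also takes sites as independent. Nearby listed sites may come from the same tags, which the simulation does not cover. Of the members 7 were tested and 0 had an adjusted p under 0.05, against 0.034% of all genes tested (2 of 5889). Without adjustment 627 genes (10.6%) and 1 member, RBL2, had a p under 0.05. That is above the share of 0.05 at most that independent sites, all split like the total, would give. The unadjusted p-values, that of RBL2 included, may therefore be too small. The exact binomial test gave RBL2 an unadjusted p of 0.0380 and an adjusted p of 0.435, CDKN2A 0.202 and 0.734, and TP63 0.285 and 0.810. The adjusted p was 1.0 for MDM2, MDM4, RB1 and RBL1. CDKN1A and CDKN2B had too few sites for the test.

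The rest of the pathways was described with 5 lists holding 110 genes. Of the p53 regulators, the kinases, ligases and cofactors that act on p53, 23 of 25 had a site in both IPs, with a median of 1.31 sense sites per 10 kb in IP 1 and 1.47 in IP 2. HIPK2, a kinase that phosphorylates p53, had 68 and 74 sense sites, COP1, a ubiquitin ligase for p53, had 40 and 43, and PPP1R13B, which encodes the p53 cofactor ASPP1, had 22 and 34. DAXX, a histone chaperone that binds MDM2, had none, and it lies in a run of 35 neighbouring protein-coding genes on chromosome 6 with no site.

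Of the p53 target genes, 20 of 32 had a site in both IPs, with medians of 0.782 and 1.39 per 10 kb, a share close to the 55.4% of all protein-coding genes. The most sense sites were in DDB2, a damage recognition protein of nucleotide excision repair, with 11 and 12, in the death receptor gene TNFRSF10B with 15 and 8, and in ZMAT3, an RNA-binding protein, with 8 and 14. SFN and TRIAP1 had no site, and both are short genes.

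Of the G1 cyclins, kinases and other inhibitors, 9 of 16 had a site in both IPs, with medians of 0.731 and 1.33. CDK6, a kinase that p16 and p15 inhibit, had 24 and 47 sense sites, FBXW7, which targets cyclin E for degradation, had 16 and 31, and CCND3, encoding cyclin D3, had 15 and 15. The inhibitor genes CDKN1C and CDKN2D had no site, and both are short genes, of 2561 and 2598 bases.

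Of the E2F and DREAM complex genes, 18 of 19 had a site in both IPs, with medians of 1.61 and 2.26. TFDP2, an E2F partner, had 38 and 54 sense sites, LIN52, a subunit of the MuvB core that joins p130 or p107 in DREAM, had 22 and 44, and E2F3 had 21 and 26. LIN37, another MuvB subunit, had none assigned to it, while its span held 0 and 2 sites assigned to other genes. Of the E2F target genes, 19 of 20 had a site in both IPs, with medians of 1.70 and 2.30. POLA1, the catalytic subunit of DNA polymerase alpha, had 33 and 43, and the replication helicase genes CDC45 and MCM6 had 6 and 12, and 7 and 7. Of the genes of the 5 lists with enough sites to be tested, 0 had an adjusted p under 0.05 in the exact binomial test of the split.

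**Figure D4:**
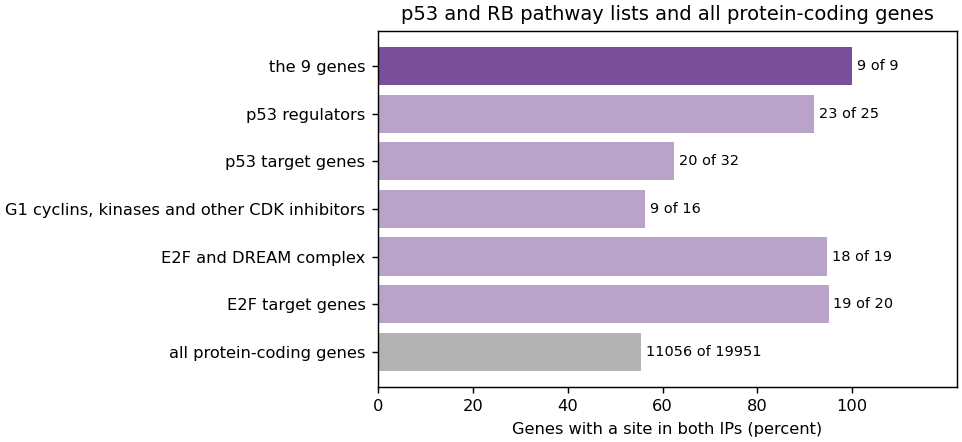
Percent of genes with a site in both IPs (horizontal axis) for the 9 genes, the 5 pathway lists and all protein-coding genes, with the number of genes beside each bar. The p53 regulators, the E2F and DREAM complex and the E2F target genes stood at 23 of 25, 18 of 19 and 19 of 20, and the p53 target genes and the G1 list at 62.5% and 56.2%, against 55.4% of all protein-coding genes. The 9 genes and the lists were chosen with earlier results of these data known, so the bars are descriptions and not tests.

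The lists differ in gene length, with median spans of 66.1 kb for the p53 regulators, 16.4 kb for the p53 targets, 13.6 kb for the G1 list, 41.6 kb for the E2F and DREAM list, 18.9 kb for the E2F targets and 27.1 kb for all protein-coding genes. Placed within their span deciles, the median percentiles in IP 1 and IP 2 were 75.4 and 74.1 for the p53 regulators, 59.1 and 67.6 for the p53 targets, 62.8 and 70.0 for the G1 list, 77.9 and 83.3 for the E2F and DREAM list, and 77.9 and 81.5 for the E2F targets. The median over all protein-coding genes, many of them without a site, was 45 in each IP.

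The labelled cell line was checked on marker genes. Of the proximal tubule markers 3 of 8 (37.5%) had a site in both IPs, below the 55.4% of all protein-coding genes, with median percentiles of 25.5 and 24.5 in their span deciles, and AQP1, SLC22A6, ANPEP and SLC5A2 had none. All 3 renal lineage genes did, PAX8 with 23 and 21 sense sites, as did 4 of 5 epithelial genes. Of the other renal markers 1 of 6 did, and of the leukocyte, endothelial and fibroblast markers 2 of 7. These counts show where listed sites fell and are not expression levels.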

How the data were processed

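RNA immunoprecipitation sequencing of HK-2 cells gave 1 list of sites for each of 2 PARP1 IPs. Per the labels' protocols, cleared lysates were incubated with Flag antibody beads, and cDNA primed with random hexamers was amplified into libraries. The submitters' processing notes name bcl2fastq, TopHat2 and the build GRCh38. Tool versions, the site caller and its cut-offs, and how duplicates and tags with several matches were treated were not given in the sources used here. Per the file headers, the authors gave at each base the counts of tags and of mutated tags, with an FDR (an adjusted p-value) from the authors that was used only as an alternative filter. The tags over all listed sites, which are not the depth of the libraries, came to 419675 in IP 1 and 572870 in IP 2.

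Gene spans and transcripts came from GENCODE release 29, with coordinates counted from 1. A gene had a site when a list assigned it 1 on either strand, and densities used sense sites. Some sequences around sites are not reported here. The members and lists were chosen with earlier results of these data known. All 9 members were named, and of each pathway list the 3 genes with the most sense sites and up to 2 with no site, first in alphabetical order. Intervals are exact (Clopper-Pearson, 95%). The binomial test was tested on simulated data with sites drawn independently and the odds of 200 genes changed. It called 26.5% of them at 4-fold odds and 66.5% at 16-fold odds. Alternatives changed the filter on sites, strand, regions, span bins, overlap and merging, and left out each IP. Python 3.11.15, numpy 2.4.6, pandas 2.3.3 and scipy 1.17.1 were used.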

Additional observations from a re-analysis of the deposited data

How the results depend on the processing

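Of 24 alternatives to the 5 main results, 17 kept the value within its limits and 7 moved it. With at least 3 mutated tags required, 3 members (MDM2, MDM4 and RBL2) had a site in both IPs, against 14.5% of protein-coding genes, and with exonic sites alone 2 did (MDM2 and MDM4), against 14.6%. When sites at each list's most common FDR or above were dropped 8 of 9 did, all but CDKN2B, against 34.0%. With at least 3 mutated tags, MDM4 counted in IP 1 through a single 3′ UTR site, whose central 15 bases other genes also hold. With exonic sites alone, the same held for all MDM2 sites and for the MDM4 sites of IP 2. Members with a base listed in both IPs numbered 0 with at least 3 mutated tags, 0 with the lower FDR and 0 with exonic sites alone. The split between IPs was called in 0 genes with sites within 100 bases counted once and in 13 with either strand, and no member was called in any setting (lowest adjusted p 0.415 to 1.0 by the exact binomial test). Leaving out either IP left 9 members with a site, against 65.6% of protein-coding genes in IP 2 alone and 61.5% in IP 1 alone. It left between 93 and 98 of the 110 pathway genes, against 87 in both. A gene with a site in both IPs has a site in each, so these counts could not fall. They are among the 17 kept and do not show that the result is robust. The median member percentile with an IP left out was 78.2 to 81.9, against 79.7 for the mean of both IPs. Depth limits every site: most rest on 2 tags. No paired analysis was possible because the inputs were not analysed here, so no groups were compared.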
